A study of Mus musculus with 4 samples.

Results

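The 10 genes described here encode lysosomal cathepsins of the mouse, and they were taken by symbol from the platform annotation: Ctsk, Ctss, Ctsl, Ctsh, Ctsb, Ctsc, Ctsz, Ctsd, Ctse and Ctsa. Each is read by 1 probe set, out of 19938 genes that a probe set with 1 symbol names. Cathepsin G, a serine protease of neutrophil granules, is no member. Colony-forming cells were profiled on 4 Affymetrix gene arrays with 1 array for each of 4 groups, which are LT-HSC CreER, LT-HSC mock, ST-HSC CreER and ST-HSC mock. LT-HSC and ST-HSC stand for long-term and short-term blood-forming stem cells, from which the colonies grew, so the RNA is that of their colony progeny. All 4 groups share the C57BL/6 background, and all colonies grew in methylcellulose with serum and the cytokines GM-CSF, IL-6, IL-3 and SCF. The series title names MLL-ENL, a fusion protein of leukaemia whose expression is conditional. The sources used here do not say which allele the mock cells carry, nor how CreER, a ligand-dependent Cre recombinase, was activated. Levels are log2 values as deposited, and a difference of 1 is a 2-fold difference. Each group is a single array of colonies whose number of animals is not given, so no pairwise difference has a replicate check.

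Cathepsins are proteases that mature and work in the acidic lysosome, where they degrade proteins taken up by endocytosis, phagocytosis and autophagy. Macrophages, dendritic cells and osteoclasts hold large amounts of them, and several also process the invariant chain of MHC class II or activate the serine proteases of granules. By catalytic residue the members form 7 cysteine proteases of the papain family (Ctsk, Ctss, Ctsl, Ctsh, Ctsb, Ctsc and Ctsz), 2 aspartic proteases (Ctsd and Ctse) and 1 serine carboxypeptidase (Ctsa). Cystatins and stefins inhibit the papain-like members. The transcription factors TFEB, TFE3 and MITF drive many lysosomal genes through an element built around the palindrome CACGTG.

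Stretches of 120 bases before the annotated start are shown for Ctsd and Ctsa, whose windows hold CACGTG, and for Ctsk and Ctss, neighbouring genes on chromosome 3 with no protein-coding gene between them. Ctsd is chr7:142387828-142387947, minus strand. Ctsa is chr2:164833653-164833772, plus strand, before the second of its annotated starts. Ctsk is chr3:95499090-95499209 and Ctss chr3:95526666-95526785, both on the plus strand. Sequences are RefSeq's for build GRCm38.p6, written from 5′ to 3′, and capitals mark CACGTGAC on either strand, which includes CACGTG.
Ctsd: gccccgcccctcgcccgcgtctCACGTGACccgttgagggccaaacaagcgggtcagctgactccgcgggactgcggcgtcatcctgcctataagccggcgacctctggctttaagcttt
Ctsa: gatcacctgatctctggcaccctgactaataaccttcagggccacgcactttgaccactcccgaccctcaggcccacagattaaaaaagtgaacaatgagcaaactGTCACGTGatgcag
Ctsk: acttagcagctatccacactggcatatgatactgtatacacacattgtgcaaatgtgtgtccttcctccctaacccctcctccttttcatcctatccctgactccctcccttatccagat
Ctss: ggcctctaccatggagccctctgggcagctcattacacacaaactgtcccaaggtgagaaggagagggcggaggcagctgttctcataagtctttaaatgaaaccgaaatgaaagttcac

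The promoter table matched 7 of the 10 members, with 8 start sites, and named no window for Ctse, Ctsb and Ctsh. In the 250 bases before each start, searched on both strands, CACGTG stood in windows of Ctsd, Ctsa and Ctsl, against 6.02% of 32851 windows of the same length. Ctsd held it at both 245 to 240 and 98 to 93 bases before its start, Ctsa at 12 to 7 and Ctsl at 236 to 231. The longer CACGTGAC, found in 1.85% of all windows, stood in those of Ctsd (at both sites) and Ctsa. GAGGAAGT, a form of the motif of the myeloid factor PU.1, stood in 2.44% of all windows and in that of Ctsc. The AP-1 motif TGANTCA stood in 6.75% of all windows and in 0 of the 8. These are matches of letters only.

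All 10 cathepsins were read above the signal floor on all 4 arrays; the floor, taken as the median of an array's probe sets that name 1 gene, lay between 8.07 and 8.13. The 10 members were lower with CreER than with mock in LT-HSC-derived cells, and 9 of 10 were lower in ST-HSC-derived cells. Of the 10411 genes that reached the floor on any array, 55.3% were below 0 in the LT-HSC comparison and 57.1% in the ST-HSC comparison. The members' median difference was -0.46 in LT-HSC progeny and -0.20 in ST-HSC progeny, beside -0.03 and -0.02 over all those genes. The members are read from the same RNA, so they are not replicates of a condition. The LT-HSC CreER array was the lowest for 9 of the 10, and the share of all genes lowest on it was not counted. That array also differed from the others at the dim end. Over 1194 olfactory and vomeronasal receptor genes, mostly silent in blood cells, its median difference was 0.086 from LT-HSC mock and 0.061 from ST-HSC CreER, while ST-HSC CreER differed from ST-HSC mock by 0.0055. The part of that in the cathepsin values was not tested. Quantile normalization gives the arrays the same distribution. After it, LT-HSC CreER minus LT-HSC mock was below 0 for 10 of 10 members and 49.4% of genes. LT-HSC CreER minus ST-HSC CreER was then below 0 for 9 of 10 members and 49.8% of genes.

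**Figure D1:**
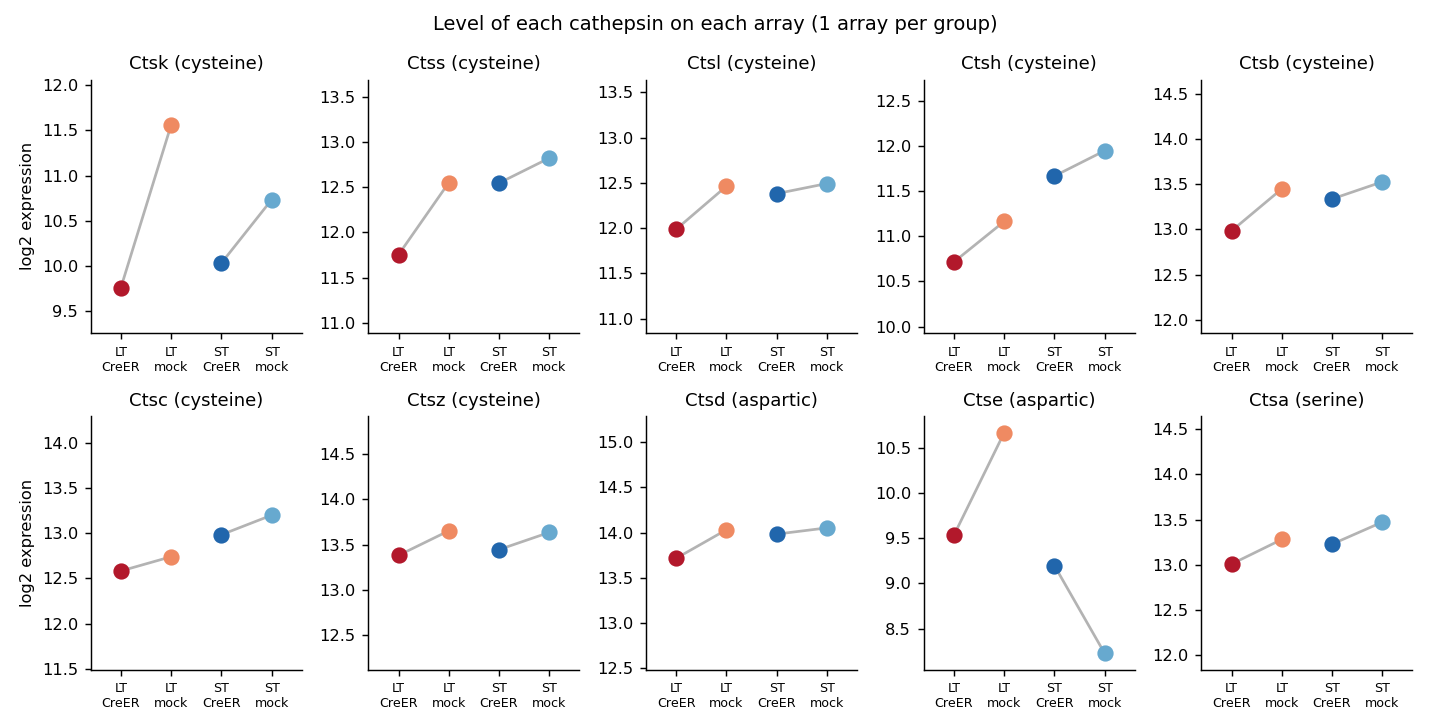
Log2 expression of each cathepsin on the LT-HSC CreER, LT-HSC mock, ST-HSC CreER and ST-HSC mock arrays, 1 point per array, with a line joining the CreER and mock arrays of a population; every panel spans the same number of log2 units, and the catalytic class stands in its title. The LT-HSC CreER array is the lowest for 9 of 10 members, and Ctse instead is lowest on ST-HSC mock. The share of all genes lowest on LT-HSC CreER was not counted.

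Ctsk (probe set 10494262, chromosome 3), a collagen-degrading protease best known from bone-resorbing osteoclasts, differed most between CreER and mock. It read 9.76 on the LT-HSC CreER array and 11.56 on the LT-HSC mock array, a difference of -1.80 and a ratio of 0.287. In ST-HSC-derived cells it read 10.03 with CreER and 10.73 with mock, a difference of -0.70. Both CreER arrays stood below both mock arrays, with 0.70 log2 units between the nearest pair.

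Ctss (probe set 10494271, chromosome 3), which trims the invariant chain in antigen-presenting cells, read 11.75 with CreER and 12.55 with mock in LT-HSC-derived cells, a difference of -0.80. Its ST-HSC-derived values were 12.54 with CreER and 12.82 with mock, a difference of -0.28. The LT-HSC CreER array thus stood apart at the low end, and ST-HSC CreER and LT-HSC mock were level to within 0.004.

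The general endopeptidases had smaller differences of the same sign. Ctsb, which also acts as an exopeptidase, read 12.98 on LT-HSC CreER and 13.45 on LT-HSC mock, and 13.34 on ST-HSC CreER and 13.53 on ST-HSC mock. Ctsl read 11.99 on LT-HSC CreER and 12.46 on LT-HSC mock, and 12.38 on ST-HSC CreER and 12.49 on ST-HSC mock. The aspartic protease Ctsd, an abundant lysosomal endopeptidase, read 13.72 on LT-HSC CreER and 14.03 on LT-HSC mock, and 13.98 on ST-HSC CreER and 14.05 on ST-HSC mock. For each of these genes the LT-HSC CreER array was the lowest and the other arrays lay close together. Their CreER minus mock differences were -0.46, -0.48 and -0.32 in LT-HSC-derived cells and -0.19, -0.11 and -0.07 in ST-HSC-derived cells, in the order Ctsb, Ctsl, Ctsd.

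Among the exopeptidases, the carboxypeptidase Ctsz read 13.38 on LT-HSC CreER and 13.65 on LT-HSC mock, and 13.44 on ST-HSC CreER and 13.64 on ST-HSC mock. Ctsa, a serine carboxypeptidase that also shields lysosomal beta-galactosidase and neuraminidase from breakdown, read 13.01 on LT-HSC CreER and 13.28 on LT-HSC mock, and 13.23 on ST-HSC CreER and 13.47 on ST-HSC mock. Both genes had both CreER arrays below both mock arrays, as for 15.7% of all genes tested. Their differences were -0.27 in LT-HSC progeny and -0.19 in ST-HSC progeny for Ctsz, and -0.27 and -0.24 for Ctsa. Ctsc, the dipeptidyl peptidase that activates granule serine proteases, read 12.58 on LT-HSC CreER and 12.74 on LT-HSC mock, and 12.98 on ST-HSC CreER and 13.20 on ST-HSC mock. It was the one member whose negative difference was larger in ST-HSC-derived cells (-0.22) than in LT-HSC-derived cells (-0.16). The aminopeptidase Ctsh (probe set 10587733, chromosome 9) read 10.71 on LT-HSC CreER and 11.16 on LT-HSC mock, and 11.67 on ST-HSC CreER and 11.94 on ST-HSC mock. For Ctsc and Ctsh the arrays separated by population, with both LT-HSC arrays below both ST-HSC arrays, as for 30.2% of all genes tested.

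Ctse (probe set 10349648, chromosome 1), an aspartic protease of endosomes found in stomach and in immune cells, did not follow the others. Its level was 9.53 with CreER and 10.67 with mock in LT-HSC-derived cells, a difference of -1.13 and a ratio of 0.456. In ST-HSC-derived cells the order was the opposite, with 9.20 for CreER and 8.23 for mock, a difference of 0.97 and a ratio of 1.96. The ST-HSC mock array was its lowest and stood just above the floor, so the size of the differences that use that array is uncertain.

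By a rule of at least 2-fold with the higher array above the floor, 2 members, Ctsk and Ctse, were called in the LT-HSC comparison, both lower with CreER. Of all genes whose higher array passed the floor, 0.875% were called there. In the ST-HSC comparison 0 members were called, with Ctse just short of the threshold, against 0.518% of genes.

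**Figure D2:**
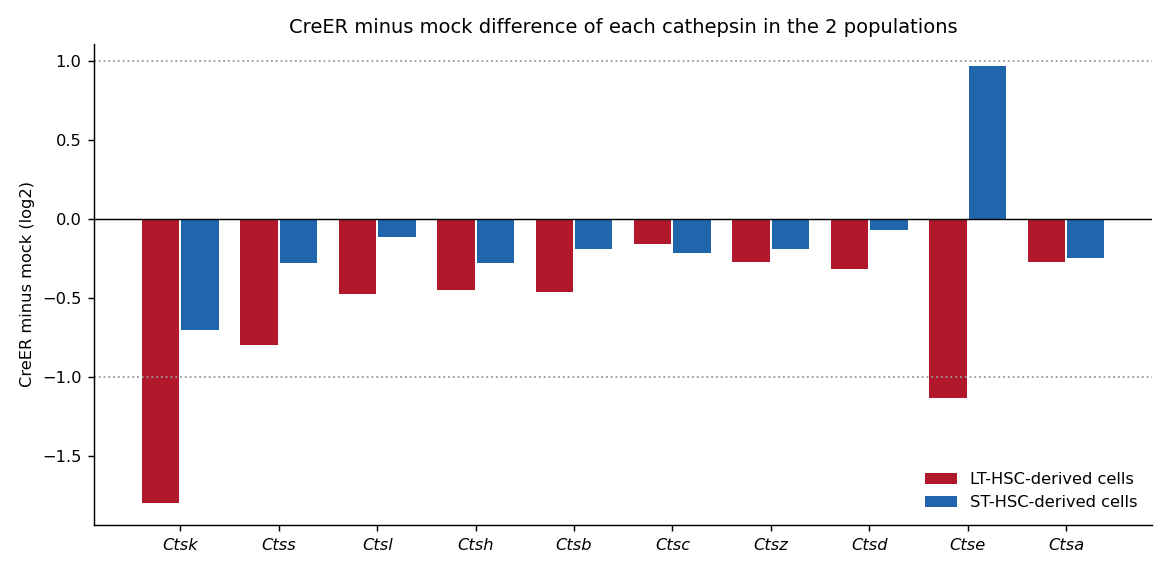
CreER minus mock difference (log2) of each cathepsin in LT-HSC-derived and ST-HSC-derived cells, each bar a difference of 2 single arrays with no error; dotted lines mark a 2-fold difference. Ctsk and Ctse pass the lower line in LT-HSC-derived cells, and Ctse is the one member above 0 in ST-HSC-derived cells, at 0.97.

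Across both populations 9 members were below 0 in each CreER minus mock comparison, as were 35.3% of all genes tested. For 7 of 10 members (Ctsk, Ctss, Ctsb, Ctsd, Ctsl, Ctsz and Ctsa) both CreER arrays stood below both mock arrays, as they did for 15.7% of all genes. The gap between the nearest arrays was only 0.004 for Ctss, 0.048 for Ctsd and 0.052 for Ctsa. Scaling alone moved single differences by up to 0.067. The 7 became 5 after quantile normalization, beside 13.1% of genes, and 6 after cyclic loess normalization or median centring, beside 15.2% and 17.0%. Since 6 members have a mean level of at least 12 with such separation, brightly read genes were also counted. Of the 838 genes at that level, 57% were below 0 in the LT-HSC comparison and 53.2% in the ST-HSC comparison, and 15.4% had both CreER arrays below both mock arrays.

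An additive fit with a term for transduction and a term for population was made over the 10411 genes with limma, which leaves 1 residual degree of freedom. For CreER minus mock, 0 of 10 members passed a Benjamini-Hochberg adjusted p of 0.05, and 0% of all genes did. At an unadjusted p under 0.05 there were 5 of 10 members, all lower, against 10.1% of genes. That count was 8 with a trend in the prior (10.4% of genes) and lay between 4 and 6 under the other settings. Ctsk had an effect of -1.25 ± 0.26 (SE) with a limma adjusted p of 0.321. The adjusted p was 0.377 for Ctss (-0.54 ± 0.15), 0.377 for Ctsh (-0.36 ± 0.099), 0.440 for Ctsb (-0.33 ± 0.11) and 0.458 for Ctsa (-0.26 ± 0.092). The other effects lay between -0.29 for Ctsl and -0.081 for Ctse, whose opposite differences the fit averages and whose SE of 0.47 was the highest of the members.

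The comparison of populations set LT-HSC-derived against ST-HSC-derived cells. With CreER, 9 of 10 members were below 0, against 53.4% of genes (64.6% after median centring), and with mock 7 of 10 were, against 54.8%. The members' median was -0.31 with CreER and -0.05 with mock, beside -0.02 and -0.03 over all genes. With CreER 0 members were called at 2-fold, against 1.94% of genes in either direction, and Ctse was 1.26-fold higher in LT-HSC-derived cells. With mock 1 member was called, against 3.12% of genes: Ctse was 5.42-fold higher in LT-HSC-derived cells. The differences with mock and those between CreER and mock share arrays, so they are not separate observations.

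For Ctsh, LT-HSC minus ST-HSC was -0.95 with CreER and -0.78 with mock. In the additive limma fit its population effect was -0.87 ± 0.099 (SE), with an adjusted p of 0.0151, and it was the one member to pass, where 6.27% of all genes passed. Its adjusted p lay between 0.00613 and 0.0313 over the settings tried. Ctsc, at -0.43 ± 0.093, had an adjusted p of 0.0643, and passed under 2 of the other settings, median centring (0.0492) and a trend in the prior (0.0325). Ctse, at 1.39 ± 0.47, had an adjusted p of 0.149, and Ctss, at -0.53 ± 0.15, did not pass either. These 4 genes were the members with an unadjusted p under 0.05, against 25.7% of genes. Both LT-HSC arrays stood below both ST-HSC arrays for Ctsh and Ctsc (30.2% of genes) and above them for Ctse (24.6% of genes).

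For each cathepsin spanning at least 1 log2 unit over the arrays, the 3 genes with the nearest profile were found by the root-mean-square distance between profiles centred on their own mean of 4 arrays. Nearest to Ctsk were Ms4a7 (0.106), Mcoln3 (0.201) and Itgax (0.273). Nearest to Ctse were Fcer1a (0.137), Mirt2 (0.141) and Ccl7 (0.165). Nearest to Ctss were Ephx1 (0.025), Zfp455 (0.047) and H2-Aa (0.060), and nearest to Ctsh were Slc9a7 (0.052), Adap2 (0.052) and Igf2bp3 (0.055). Of these 12 genes 7 were under the floor on 1 or 2 arrays: Ms4a7, Fcer1a, Ephx1, Zfp455, Slc9a7, Adap2 and Igf2bp3. A profile of 4 points from the same arrays is a description of these arrays. Ctsk and Ctse share their highest array, LT-HSC mock, and differ at the low end.

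**Figure D3:**
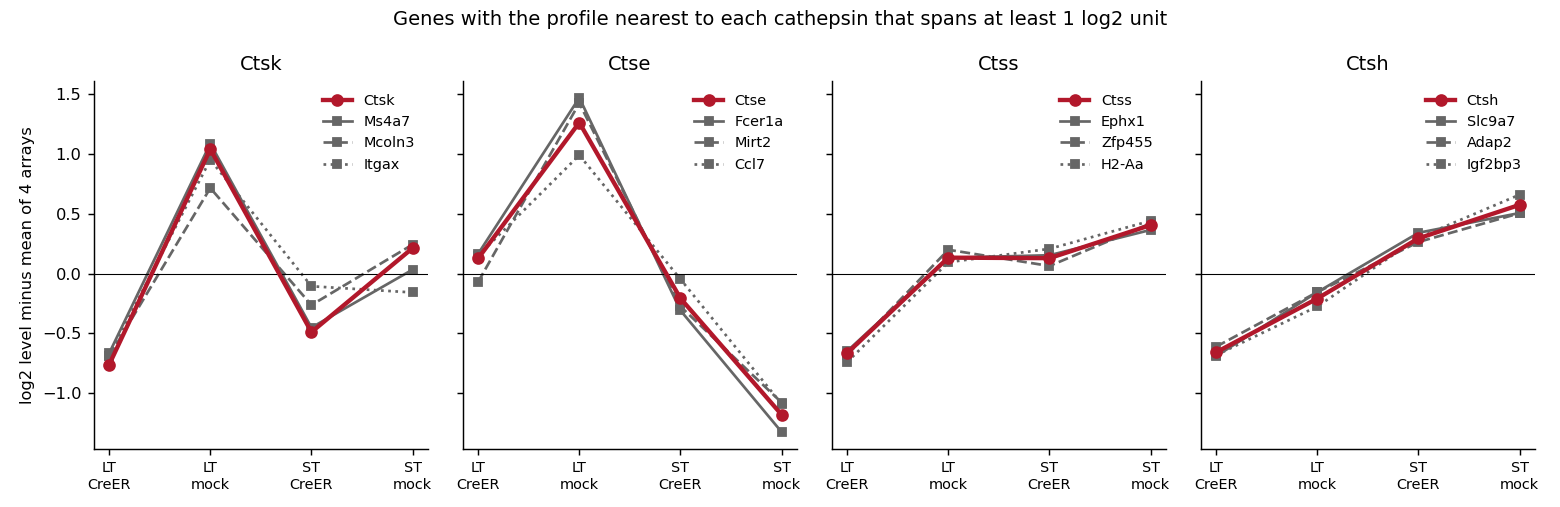
Log2 level minus each gene's mean of 4 arrays for the 4 cathepsins that span at least 1 log2 unit (red) and the 3 genes with the nearest profile (grey), by array, with 1 array per group. Ctsk and Ctse both peak on LT-HSC mock, Ctss is low on LT-HSC CreER alone, and Ctsh is lower on both LT-HSC arrays.

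Most macrophage and dendritic cell markers past the floor were also lower with CreER, unlike those of neutrophils and eosinophils given below. In bulk RNA fewer cells of a type and less RNA per cell cannot be told apart. Of 12 macrophage markers 9 passed the floor, with Cd68, Adgre1, Mrc1 and Trem2 among them and C1qa, C1qb and C1qc under it on all arrays. The mean level of the 12 was 10.1 on LT-HSC CreER and 10.5 on LT-HSC mock, and 10.5 on ST-HSC CreER and 10.6 on ST-HSC mock. The 9 had a median CreER minus mock difference of -0.56 in LT-HSC progeny and -0.13 in ST-HSC progeny, with Mrc1 at -1.32 and -0.03, Mertk at -1.21 and -0.42, and Trem2 at -1.12 and -0.31. In each comparison 7 of the 9 were below 0, with Itgam at 0.02 and 0.21, Cd14 at 0.05 and -0.65, and Fcgr1 at -0.67 and 0.19. Over all genes tested the shares below 0 were 55.3% in LT-HSC progeny and 57.1% in ST-HSC progeny. Of 10 dendritic cell markers 5 passed, with medians of -0.74 and -0.12 and Itgax at -1.63 and 0.05, while the defining genes Zbtb46, Xcr1, Flt3 and Cd209a were under the floor on all arrays. The part of these markers in the cathepsin differences was not tested.

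Osteoclast markers did not follow Ctsk as a list. Of 11 markers 8 passed the floor, with a median CreER minus mock difference of -0.13 in LT-HSC progeny and 0.05 in ST-HSC progeny. Acp5, the tartrate-resistant acid phosphatase, was at -0.69 and -0.35, and Atp6v0d2 at -1.37 and -0.14. Mmp9 was at 0.05 and 2.05, Car2 at 0.23 and 0.34, and Itgb3 at -0.12 and 0.25. Below 0 were 5 of the 8 in LT-HSC progeny and 3 of the 8 in ST-HSC progeny, and Calcr, Ocstamp and Dcstamp were under the floor on all arrays.

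As a list, mast cell and basophil markers were lower with CreER in LT-HSC progeny and higher in ST-HSC progeny, the signs seen for Ctse. The mean level of all 12 was 10.3 on LT-HSC CreER and 10.7 on LT-HSC mock, and 9.26 on ST-HSC CreER and 8.77 on ST-HSC mock. The 10 past the floor had medians of -0.31 for CreER minus mock in LT-HSC progeny and 0.42 in ST-HSC progeny, with Mcpt4 and Cma1 under the floor throughout. In LT-HSC progeny 8 of the 10 were below 0 and in ST-HSC progeny 9 of the 10 were above 0, with Kit at 0.06 and 0.15 and Prss34 at 0.07 and -0.10. Among those 9, Cd200r3 and Tpsb2 passed the floor only on the LT-HSC arrays, and Ms4a2 was under it on ST-HSC mock. Their ST-HSC differences, and the ST-HSC median and count that include them, are therefore uncertain. Fcer1a, the IgE receptor chain, was at -1.30 and 1.01, Cpa3 at -0.45 and 1.17, and Mcpt8 at -0.12 and 0.21. The level of Fcer1a was 9.09 on LT-HSC CreER and 10.39 on LT-HSC mock, and 8.62 on ST-HSC CreER and 7.61, under the floor, on ST-HSC mock. Eosinophil markers past the floor had medians of 0.25 and 1.08. How far the number of such cells sets the Ctse values was not tested. All 12 neutrophil markers passed the floor, with median CreER minus mock differences of 0.18 in LT-HSC progeny and 0.25 in ST-HSC progeny. Below 0 were 3 of the 12 in LT-HSC progeny and 2 of the 12 in ST-HSC progeny, and Mmp9 at 2.05, Cxcr2 at 1.64 and Retnlg at 1.57 were at least 2-fold higher with CreER in ST-HSC progeny. Their part in the cathepsin differences was not tested. Of 7 eosinophil markers 5 passed the floor, as did 1 of 5 measured B cell markers (Cd79b), 0 of 6 T and NK cell markers, 4 of 7 fibroblast markers and 6 of 7 erythroid and megakaryocyte markers.

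Other lysosomal genes were mostly lower with CreER too, by less than the cathepsins at the median. Of 30 other hydrolases, all past the floor, 26 were below 0 in LT-HSC progeny and 22 in ST-HSC progeny, with medians of -0.25 and -0.12. Of all genes tested, 55.3% were below 0 in LT-HSC progeny and 57.1% in ST-HSC progeny. Legumain (Lgmn), an endopeptidase that cleaves several cathepsins further, read 10.82 with CreER and 11.85 with mock in LT-HSC-derived cells, a difference of -1.03. In ST-HSC-derived cells Lgmn read 11.26 with CreER and 11.88 with mock, a difference of -0.62, and it was the one hydrolase of the list called at 2-fold between CreER and mock. Glb1, the beta-galactosidase that Ctsa shields, was at -0.61 and -0.13, and its limma effect for LT-HSC minus ST-HSC was 1.07 ± 0.14 (SE) with an adjusted p of 0.0199, while that of Ctsa was -0.21 ± 0.092 with 0.238. Scpep1, a relative of Ctsa, was at -0.98 and -0.45, and the sulfatase Arsb had the other sign, at 0.76 and 0.15. In the limma fit 10 of the 30 had an unadjusted p under 0.05 for CreER minus mock, against 10.1% of all genes. Of the 10 only Arsb was higher, and 0 of the 30 had an adjusted p under 0.05.

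**Figure D4:**
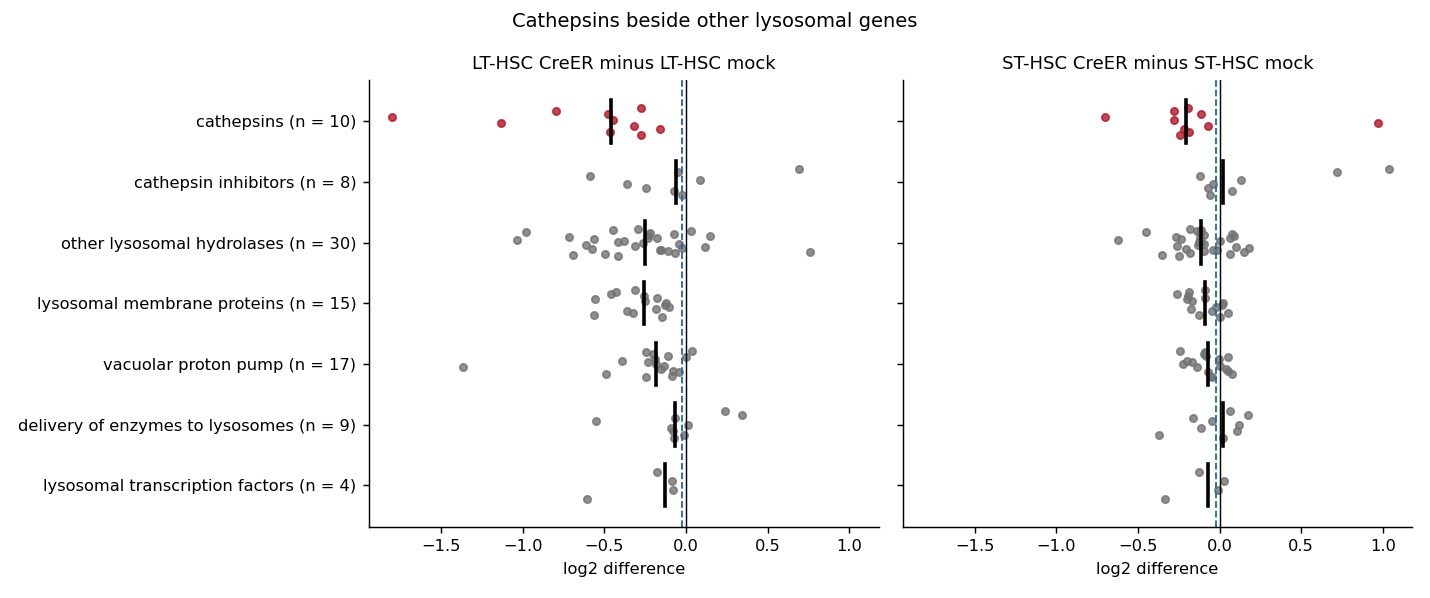
CreER minus mock difference (log2) in LT-HSC-derived cells (left) and ST-HSC-derived cells (right) for the cathepsins (red) and other lysosomal genes past the floor (grey), 1 point per gene; black bars are list medians and the dashed line is the median of all genes. The cathepsin medians are -0.46 and -0.20, and those of the other hydrolases -0.25 and -0.12.

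All 15 measured lysosomal membrane proteins were below 0 in LT-HSC-derived cells, with a median of -0.25, and 11 of 15 in ST-HSC-derived cells, with a median of -0.09. Cd68, a macrophage lysosomal glycoprotein, was at -0.56 and -0.13, and the cholesterol exporter Npc1 at -0.55 and -0.20. For the vacuolar proton pump, which acidifies the lysosome, 16 of 17 genes were below 0 in LT-HSC progeny and 12 of 17 in ST-HSC progeny, with medians of -0.18 and -0.07. Beside the counts of both lists, 55.3% of all genes were below 0 in LT-HSC progeny and 57.1% in ST-HSC progeny. Between CreER and mock only Atp6v0d2, a subunit of macrophages and osteoclasts, was called at 2-fold, at -1.37 in LT-HSC-derived cells. Among transcription factors of lysosomal genes, Mitf was at -0.61 and -0.33, while Tfeb, Tfe3 and Tfec lay between -0.17 and 0.03 in both comparisons. Genes that deliver enzymes to the lysosome had medians of -0.07 and 0.02 over 9 members, of which 6 and 4 were below 0. The largest difference among them was that of Igf2r, at -0.55 and -0.04, and the largest above 0 that of Sorl1, at 0.34 and 0.17. In the limma fit 0 genes of these 4 lists had an adjusted p under 0.05 for CreER minus mock. At an unadjusted p under 0.05 there were 4 of 15 membrane proteins, 2 of 17 pump genes and 1 of 4 transcription factors (Mitf), all lower, and 1 of 9 delivery genes, the sorting receptor Sorl1, which was higher. The share over all genes was 10.1%, and the pump and delivery lists are near it.

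Inhibitors of cathepsins had medians near 0, with members on both sides of it. Over 8 inhibitors past the floor, the median CreER minus mock difference was -0.06 in LT-HSC progeny and 0.02 in ST-HSC progeny. The stefin gene Stfa3 was at 0.69 and 1.04, with levels of 12.42 on LT-HSC CreER and 11.73 on LT-HSC mock, and 12.75 on ST-HSC CreER and 11.72 on ST-HSC mock. Its limma effect for CreER minus mock was 0.87 ± 0.12 (SE), with an adjusted p of 0.316. Another stefin gene, Stfa2, was at -0.05 and 0.72, and Serpinb6a was at -0.59 and -0.12. The secreted cystatin Cst3 was at -0.03 and -0.06, and Cstb at -0.24 and -0.07. Of the 8, 6 were below 0 in LT-HSC progeny and 4 in ST-HSC progeny. Between populations, Cst7 (cystatin F, an inhibitor of cathepsin C) had a limma effect of 0.67 ± 0.098 for LT-HSC minus ST-HSC, with an adjusted p of 0.0264, on the other side of 0 from Ctsc. Ctla2a, whose protein resembles cathepsin propeptides, was at 1.65 ± 0.12 with an adjusted p of 0.00554, although LT-HSC mock was its only array above the floor.

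Proteins that cathepsins process varied among themselves. Cd74, the invariant chain cut by Ctss, was at -0.74 for CreER minus mock in LT-HSC progeny and -0.12 in ST-HSC progeny. Of the proteases that Ctsc activates, Elane was at 0.50 and -0.05, Prtn3 at 0.89 and 0.11, and Gzmb at -1.17 and 1.62, a pattern of opposite signs like that of Ctse. Gzma and Cma1 were under the floor on all arrays. Among further papain-like genes, Ctso was at -0.66 and -0.34 and was the only one of 9 measured to pass the floor, with a limma adjusted p of 0.329 for CreER minus mock. Ctsf, Ctsw and the mostly placental Ctsj, Ctsq, Ctsr, Cts6, Cts7 and Cts8 stayed under the floor on all arrays.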

How the data were processed

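RNA was amplified and biotin-labelled per the labels' protocols, and the deposited values were made with Affymetrix Expression Console per the submitters' processing notes. The sources used here give neither a version nor a normalization. The deposited log2 unit was read from the values, which span 2.21 to 14.82. Columns were used as deposited, with array medians of 7.75 to 7.82.

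Of 35556 probe sets, 21789 had 1 symbol, 1621 several and 12146 none here. Among several probe sets of a gene, that of highest mean level stood for it; each cathepsin has 1, and all 10 symbols are unchanged in the RefSeq table of GRCm38.p6. Genes that reached the floor on any array entered the limma 3.58.1 fit in R 4.3.3 (lmFit, eBayes, 4.27 prior degrees of freedom), with Benjamini-Hochberg adjustment over all of them. On simulated data without interaction, the fit recovered planted effects larger than that of any cathepsin, but let through more unchanged genes than the nominal share. Recovery of effects as small as those of the members was not tested, and the adjusted p-values given here may be too low. With 1 array per group, the residual of a gene is the difference between its CreER effects in the populations, moderated by the prior. The SEs and p-values therefore do not measure a spread between repeat arrays, colonies or animals. An SE is small where the CreER effects are alike and large where they differ.

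The genes named were all 10 members, their 3 nearest profiles where the arrays span at least 1 log2 unit, and from each other list the genes at least 2-fold apart or otherwise up to 4 with the largest differences. Other named genes (such as Scpep1, Arsb, Acp5, Cst3, Cstb, Cst7, Cd74, Elane, Prtn3, Tfeb, Cd14 and Sorl1) were chosen after their values were seen, and not every marker past 2-fold is named. The members and lists were chosen with earlier results of these data known. Alternatives were 3 normalizations, 3 floors, other fold and p thresholds, the mean of probe sets and a trend in the prior. The scaling counts for array separation and the level of 12 were added after seeing the data.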

Additional observations from a re-analysis of the deposited data

Results flagged for a closer look

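Ctse was flagged because the CreER minus mock difference had opposite signs in the populations, -1.13 in LT-HSC progeny and 0.97 in ST-HSC progeny. They differ by -2.10, and with 1 array per group this difference was not tested. Ctsk was flagged because LT-HSC minus ST-HSC was -0.27 with CreER and 0.83 with mock, a difference of -1.10 that was not tested. Ctsz met the same condition with -0.064 with CreER and 0.018 with mock, a difference of -0.081 that was not tested. The value for Ctsz with mock was -0.017 after median centring, so its sign depends on the scaling.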

How the results depend on the processing

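The differences of single cathepsins moved by at most 0.067 log2 units under quantile, cyclic loess or median-centred scaling or the mean of probe sets, and 159 of 160 kept their sign; the exception was Ctsz, given above. Counts of called members changed mainly with the fold threshold. For CreER minus mock, LT-HSC-derived cells had 1 member at 3-fold in place of 2. ST-HSC-derived cells had 2 at 1.5-fold in place of 0, of which 1 was lower and 1 higher. For LT-HSC minus ST-HSC, CreER had 2 members at 1.5-fold, both lower, and 1 with median centring (Ctsh at -1.02) in place of 0. Mock had 3 at 1.5-fold in place of 1, of which 1 was lower and 2 higher. No share of all genes was counted at 1.5-fold, at 3-fold, at 2-fold with median centring or at an adjusted p of 0.1. In the additive fit, 2 members passed for the populations with median centring, with a trend in the prior and at an adjusted p of 0.1, in place of 1. For CreER minus mock 0 passed under every setting run. There 531 of 5425 to 1633 of 19938 genes had an unadjusted limma p under 0.05, shares that lay between 8.19% and 10.4% over the settings. The count of all genes passing for the populations, 653, was 186 with the floor at the 75th percentile, which tests fewer genes, and 368 with cyclic loess, and lay between 459 and 945 under the other settings, the highest with the floor from receptor genes. Population is already a block in the additive fit, and no paired analysis by replicate number was possible because each group holds 1 array and the labels number no replicates; leaving out an array leaves no residual degree of freedom. The number of arrays and readings near background limit the precision.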
